A study of Mus musculus with 17 samples.

Results

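Adipose-like implants grown from leptin knockout cells were compared with endogenous visceral fat of mice across all genes of the deposited table. The members were chosen by code: the KO implant libraries MKF1, MKF2 and MKM2 against the visceral libraries EVM1, EVM2, EVFY1, EVFY2 and EVFN2, which are 8 of the 16 libraries with a column. The libraries labelled MKM1 and EVFN1 were left out because their profiles match each other's group, a choice that was made with the values known. Of the 54658 genes in the table, 16711 reached at least 1 CPM (reads of a gene scaled to 1000000 per library) in at least 2 of the 8 libraries and were tested.

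The series is about how leptin and factor D made by fat bear on osteoarthritis and pain in mice. Mouse embryonic fibroblasts (MEF) were injected under the skin over the sternum of hosts of a type named LD at 3 to 5 weeks of age and grew into tissue resembling fat. Animals with surgery had the medial meniscus of the left knee destabilized at 16 weeks, which leads to osteoarthritis, and mice were killed at 28 weeks. The codes MKF and MKM stand for implants of homozygous leptin knockout fibroblasts in animals with surgery, described as female and male. EVM is endogenous visceral fat of animals with surgery, EVFN is visceral fat of animals without it, and EVFY has the visceral genotype label but a code that is not spelled out. All 3 KO implants thus came from animals with surgery, and of the visceral libraries EVM1 and EVM2 are stated to. The sides also differ in the letters of their codes, with M in 1 of 3 KO implants and in 2 of 5 visceral libraries. The design text calls the hosts male, and neither the knockout allele nor the animals that gave the endogenous fat are described. Whether each library is a different animal is not stated, and a p-value here sets a difference against library-to-library spread that may be partly or wholly technical.

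White fat cells store triglyceride in a large droplet, release fatty acids when adrenergic receptors are stimulated, and secrete hormones, among them leptin, adiponectin and complement factor D (adipsin), the protease that starts the alternative complement pathway. Macrophages in fat take up lipid from stressed or dying adipocytes in their lysosomes and then switch on genes such as Trem2 and Gpnmb. Visceral fat pads are covered by a mesothelium, a sheet of epithelium-like cells that subcutaneous depots lack, and adipose depots keep developmental transcription factors that mark where in the body they formed.

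The labels name the tissue of every library as ganglia. White adipocyte genes were abundant instead: the summed level of 25 genes of that list was 33136 to 40310 CPM in the KO implants and 56011 to 85619 CPM in visceral fat, whereas 25 sensory neuron genes summed to 213 to 273 CPM and 353 to 447 CPM. Total reads of the 8 libraries ranged from 16832037 to 25805502, so 1 read was worth 0.0388 to 0.0594 CPM. The Y-linked gene Ddx3y was at 80.6 to 95.5 CPM in MKM2, EVM1 and EVM2 and at 0 reads in the 5 libraries with F codes, so these 8 libraries matched their letters. The implants MKF1 and MKF2 thus held no reads of Ddx3y, whereas the design text calls the hosts male. The reason was not tested.

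The libraries labelled MKM1 and EVFN1 go against their labels, and the calls below rest on leaving both out. The library labelled MKM1 had 14068 CPM of Cfd and 200 CPM of the mesothelial gene Upk3b, levels of the visceral libraries, and no reads of Ddx3y. The library labelled EVFN1 had 81.8 CPM of Cfd and 0.058 CPM of Upk3b, levels of the KO implants. It held 29.4 CPM of Ddx3y together with 278 CPM of the X-inactivation transcript Xist, unlike MKF1 and MKF2 (Ddx3y 0) and MKM2 (Ddx3y 80.6 and Xist 3.77 CPM). Such a mix was not unique in the series, because implants of wildtype cells with M codes showed it too. MWM1 had 13.06 CPM of Ddx3y beside 493.9 CPM of Xist, and MWM2 had 17.34 beside 466.1 CPM. MWF1 and MWF2, also from wildtype cells, held only 0.266 and 0.182 CPM of Ddx3y. Across tested genes the mean correlation of the library labelled EVFN1 was 0.975 with the KO implants and 0.9 with visceral fat. That of the library labelled MKM1 was 0.9 and 0.967. With both entered under their labels, limma called 0 of 16926 genes (0.0%) at an adjusted p under 0.05, 1295 genes had an unadjusted p under 0.05, and edgeR on the recovered reads called 0, with 1173 unadjusted. The members of every list described here then also gave 0 calls.

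Without these libraries, limma on log2(CPM + 0.5) called 4036 of 16711 genes (24.2%) at an adjusted p under 0.05. EdgeR on the recovered reads called 2297 higher (13.7%) and 1661 lower (9.94%). Of the limma calls, 2624 were higher in the KO implants (15.7%) and 1412 were lower (8.45%), which are the shares against which the members of each list below are read. A difference of at least 2-fold was passed by 1231 higher genes (7.37%) and 562 lower ones (3.36%). In 3485 genes (20.9%) every KO implant lay above every visceral library, and in 2062 (12.3%) every one lay below. Calls depended on the few libraries: 1911 genes passed without MKF1, 2409 without MKF2 and 2296 without MKM2, and 1709 (10.2%) passed with all 8 libraries and in each of the 8 fits that left 1 library out. The median difference of all tested genes was 0.06 on the log2 scale.

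**Figure D1:**
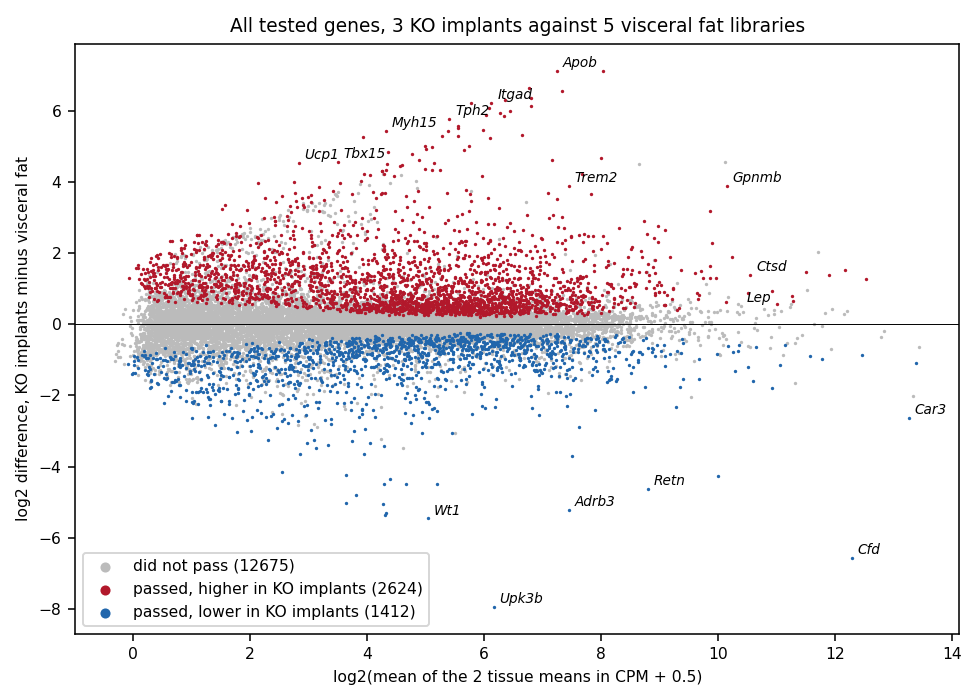
Each point is 1 of 16711 tested genes. The x axis is log2 of the mean of both tissue means in CPM plus 0.5, and the y axis is the log2 difference between 3 KO implants and 5 visceral fat libraries. Red points passed and were higher in the KO implants (2624), blue points passed and were lower (1412), and grey points did not pass. Cfd and Upk3b lie farthest below 0 among the labelled genes, and Apob and Itgad lie far above it.

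Many genes of the mature adipocyte were lower in the KO implants, by very different amounts. Of 25 tested white adipocyte genes, 14 fell and 1 rose, and the median log2 difference was -0.77. Without 1 library, 7 (without MKF2 or MKM2) to 14 of them fell. Cfd (chr10:79890853-79892655, mm10), which encodes complement factor D, was at 91.4, 104 and 102 CPM in MKF1, MKF2 and MKM2. In visceral fat it was at 5788 (EVM1), 12351 (EVM2), 10903 (EVFY1), 7976 (EVFY2) and 12313 CPM (EVFN2). The KO implants lay close together and far below the lowest visceral library, EVM1, and Cfd fell by 6.58 (SE 0.26, adjusted p 2.85e-05) on the log2 scale. It passed in every fit that left a library out.

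Retn, which encodes the hormone resistin, was at 32.6, 28.5 and 34.2 CPM in the KO implants against 373, 1016, 1104, 709 and 1097 CPM in EVM1, EVM2, EVFY1, EVFY2 and EVFN2. It fell by 4.64 (SE 0.35, adjusted p 0.000394), with EVM1 again the lowest visceral library. Car3, a carbonic anhydrase abundant in fat cells, was at 2920, 2462 and 2551 CPM against 10640 to 21039 CPM and fell by 2.64 (SE 0.25, adjusted p 0.000754). Adipoq, which encodes adiponectin, was at 810, 719 and 729 CPM against 1503, 2415, 2476, 2177 and 3156 CPM. The groups did not overlap, and it fell (log2 difference -1.60, SE 0.22, adjusted p 0.00264). Pparg, the transcription factor of fat cell differentiation, fell by 0.55 (SE 0.15, adjusted p 0.0334), but did not pass without EVFY1, EVFN2, EVM2 or any 1 KO implant. Fabp4, a fatty acid carrier of fat cells and macrophages, was at 5623 to 7128 CPM against 6748 to 9441 CPM and did not pass (log2 difference -0.35, SE 0.17, adjusted p 0.18). The adipocyte gene that rose was Gpd1, an enzyme of glycerol phosphate synthesis, at 859 to 1090 CPM against 185 to 667 CPM (log2 difference 1.54, SE 0.43, adjusted p 0.0331). It did not pass without any 1 KO implant, EVFY1 or EVFN2, nor in edgeR (adjusted p 0.0661). In bulk tissue, fewer adipocytes and less of these RNAs per adipocyte cannot be told apart.

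Genes of adrenergic signalling and lipolysis gave 6 of 20 tested members lower and 0 higher (median -0.27). Without 1 library, 2 (without MKF2 or MKM2) to 6 fell. Adrb3, the adrenergic receptor typical of fat cells, was at 8.99, 7.08 and 6.52 CPM in the KO implants. In visceral fat it was at 108 (EVM1), 603 (EVM2), 254 (EVFY1), 416 (EVFY2) and 318 CPM (EVFN2), and it fell by 5.21 (SE 0.48, adjusted p 0.000771). Pde3b, the phosphodiesterase through which insulin restrains lipolysis, fell by 1.38 (SE 0.19, adjusted p 0.00252). Lipe, the hormone-sensitive lipase, fell by 0.78 (SE 0.18, adjusted p 0.0185), and did not pass without MKF2 or MKM2.

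Lipogenesis genes varied widely within visceral fat. Of 20 tested, 2 fell and 0 rose (median -0.35): Acaca and Acacb, the acetyl-CoA carboxylases, with log2 differences of -1.76 (SE 0.49, adjusted p 0.034) and -1.32 (SE 0.34, adjusted p 0.0269). Neither passed without EVFY1, EVFN2 or any 1 KO implant, and Acaca did not without EVM2. The list summed to 7838 to 9647 CPM in the KO implants, to 7357 CPM in EVFY2 and to 23291 to 40324 CPM in the other visceral libraries, so EVFY2 lay with the implants. Without EVFY2, 7 members fell. Of 20 cholesterol synthesis genes, 3 rose, Dhcr7 among them, and 1 fell (Fdft1, squalene synthase). Among all tested genes 15.7% were higher and 8.45% lower, and the counts of the lipogenesis and cholesterol lists lie near or below these shares. Dhcr7, the last enzyme of the pathway, was at 34.8, 32.2 and 35.9 CPM against 7.55 to 16.6 CPM (log2 difference 1.52, SE 0.23, adjusted p 0.00367), and Fdft1 was at 17.4 to 25.6 CPM against 49.8 to 70.1 CPM (log2 difference -1.34, SE 0.15, adjusted p 0.00147). Without EVM2, 6 members rose, and without MKF1, 1 did.

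Transcripts of the leptin gene were present in the KO implants. Lep (chr6:29060220-29073877, mm10) was at 1644, 1726 and 1336 CPM in MKF1, MKF2 and MKM2 and at 1336 (EVM1), 1462 (EVM2), 957 (EVFY1), 737 (EVFY2) and 1065 CPM (EVFN2) in visceral fat. MKM2 lay below EVM2, so the groups overlapped, and Lep did not pass (log2 difference 0.53, SE 0.23, adjusted p 0.131). Among the libraries with F codes it was higher in the implants (log2 difference 0.89, adjusted p 0.026), and among those with M codes the difference was -0.07. The M-code difference minus the F-code difference was -0.955 (SE 0.318). It rests on the single implant MKM2, so no difference between the letters is drawn from it. The allele is not given and a transcript can remain from a knockout allele, so these counts check neither the genotype nor the protein. Lepr, the leptin receptor, was at 6.04, 6.14 and 18.4 CPM against 3.68 to 38 CPM and did not pass (adjusted p 0.815). Of 12 genes of leptin signalling, Ptpn1, a phosphatase that restrains the receptor, rose (log2 difference 0.84, SE 0.16, adjusted p 0.00798), and Stat5a fell by 0.35 (SE 0.10, adjusted p 0.0328) but did not pass without EVFY1, EVFN2 or any 1 KO implant.

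**Figure D2:**
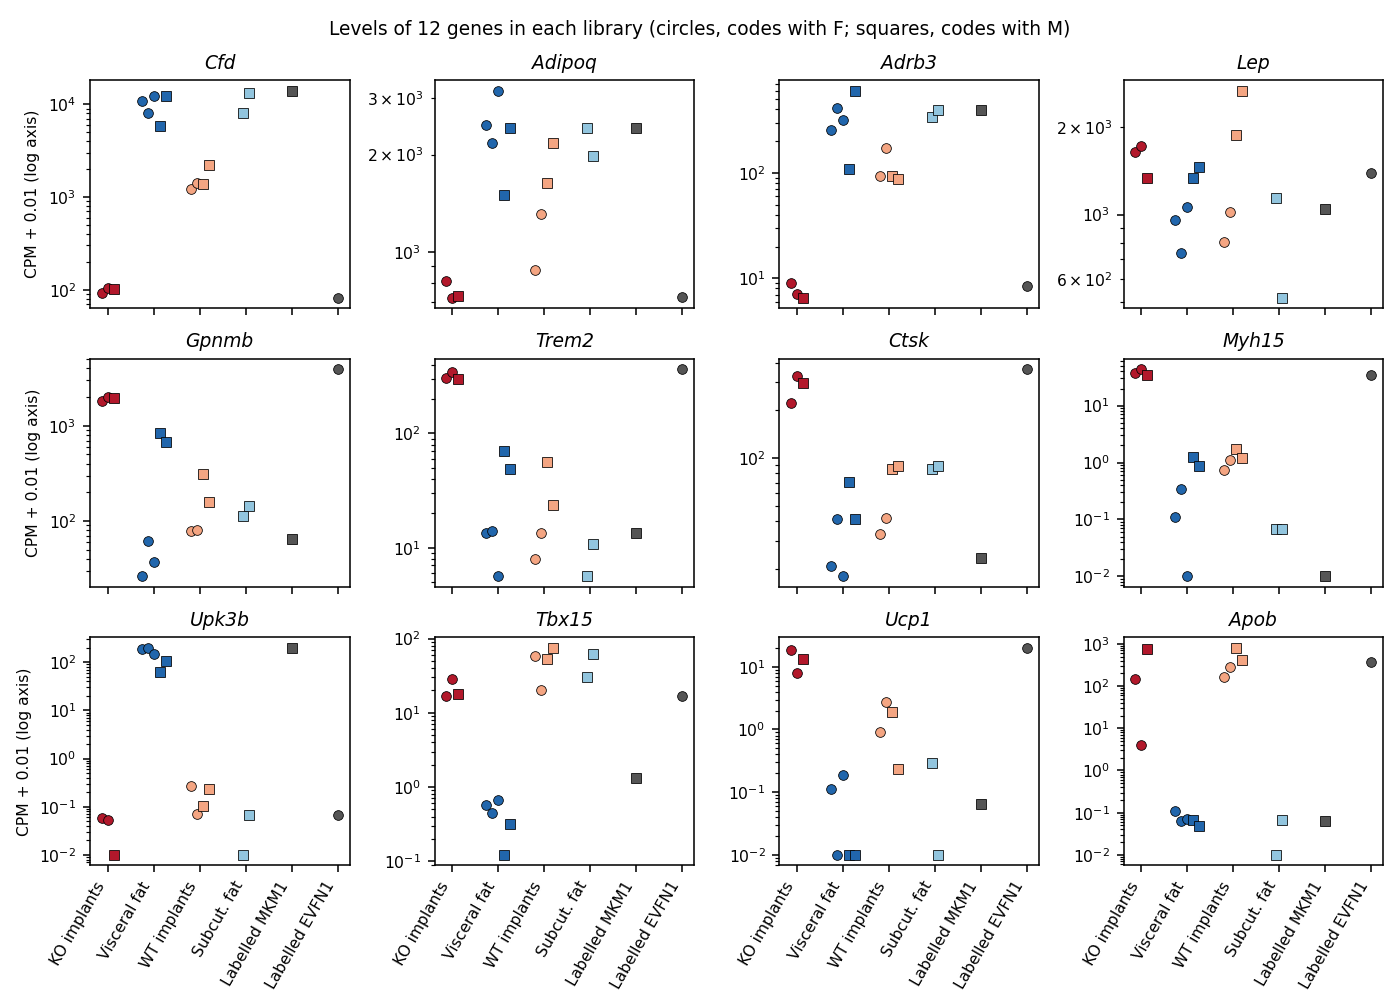
Levels of 12 genes in each library, as CPM plus 0.01 on a log axis. Circles are libraries with F codes, squares those with M codes, and columns are the KO implants, visceral fat, implants of wildtype (WT) cells, subcutaneous fat and the libraries labelled MKM1 and EVFN1. The 3 KO implants have 91.4 to 104 CPM of Cfd against 5788 to 12351 CPM in visceral fat, and Lep overlaps between them.

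Genes of lipid-loaded macrophages were higher in the KO implants. Of 21 tested members of that list, 17 rose and 0 fell, with a median log2 difference of 2.43, and 12 (without MKF1) to 18 rose when 1 library was left out. Trem2, a lipid-sensing receptor of macrophages, was at 306, 345 and 300.5 CPM in MKF1, MKF2 and MKM2. In visceral fat it was at 70.6 (EVM1), 48.6 (EVM2), 13.5 (EVFY1), 14.1 (EVFY2) and 5.64 CPM (EVFN2). The groups did not overlap (log2 difference 3.89, SE 0.74, adjusted p 0.00798), and within visceral fat both EVM libraries lay above the 3 with F codes. Gpnmb (chr6:49036546-49070929, mm10), a membrane glycoprotein of lysosome-rich macrophages, was at 1829, 2023 and 1943 CPM against 843 (EVM1), 672 (EVM2), 26.2 (EVFY1), 62.1 (EVFY2) and 37.2 CPM (EVFN2). Its log2 difference of 3.90 (SE 1.20) passed with an adjusted p of 0.048, and did not pass without any 1 KO implant, EVFY1, EVFY2 or EVFN2, nor in edgeR (adjusted p 0.141). Among the libraries with F codes it rose by 5.60 (adjusted p 0.000788), and among those with M codes the difference was 1.37 (adjusted p 0.167).

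Plin2, a coat protein of lipid droplets, was at 1590, 1568 and 1518 CPM against 215 to 528 CPM and rose by 2.29 (SE 0.27, adjusted p 0.00178). Olr1, a receptor for oxidized lipoprotein, was at 8.79, 8.84 and 8.96 CPM against 0.452 to 1.23 CPM (log2 difference 3.01, SE 0.22, adjusted p 0.000329). Itgad, an integrin subunit found on macrophages, was among the 10 genes with the largest rise, at 133, 119 and 155 CPM against 7.37 (EVM1), 4.57 (EVM2), 0.553 (EVFY1), 0.274 (EVFY2) and 0.119 CPM (EVFN2). It rose by 6.22 (SE 0.86, adjusted p 0.00271), and again the EVM libraries were the highest of visceral fat. Other members that rose include Cd9, Cd63, Cd68, Lgals3, Lipa, Msr1 and Tyrobp.

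Most lysosomal genes rose, with 30 of 34 tested members higher, 0 lower and a median of 0.90. When 1 library was left out 23 (without MKF1 or MKF2) to 31 rose. Their summed level was 23963 to 27056 CPM in the KO implants and 8941 to 14233 CPM in visceral fat, with EVM1 the highest of the latter. Ctsd, an aspartic protease, was at 2305, 2216 and 1922 CPM against 1134, 785, 1001, 575 and 721 CPM (log2 difference 1.39, SE 0.22, adjusted p 0.00434). Ctsa, the protective protein of lysosomal glycosidases, was at 630, 713 and 602 CPM against 223 to 318 CPM (log2 difference 1.39, SE 0.14, adjusted p 0.000994). Gla, which encodes alpha-galactosidase, was at 52.1, 51.1 and 50.2 CPM against 24.3 (EVM1), 16.1 (EVM2), 5.18 (EVFY1), 6.58 (EVFY2) and 7.19 CPM (EVFN2). It rose by 2.30 (SE 0.47, adjusted p 0.0104). Atp6v1a, a subunit of the proton pump that acidifies lysosomes, rose by 1.31 (SE 0.26, adjusted p 0.0103). Mcoln1, a lysosomal calcium channel, was at 68.8 to 75.5 CPM against 45.2 to 70.4 CPM and did not pass (log2 difference 0.34, SE 0.17, adjusted p 0.175).

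The element to which TFEB and related factors bind in promoters of lysosomal genes is the palindrome TCACGTGA. RefSeq's table of promoters (GRCm38.p6) has an entry for 26 of the 34 genes of the list, and the motif is in the 250 bases before the start of 5 of them. It is in 0.907% of the 27025 genes with an entry and in 1.61% of the 11644 tested genes with an entry, which are 69.7% of the tested genes. With 76.5% of the list matched by symbol, both matches are below the 80% used as a minimum, and the shares were not compared. The windows of 30 bases around it are shown, for Gla around the first of 2 matches, 5′ to 3′ on the strand of the gene, with the motif in capitals, to set the sequence beside the values of the same genes.
Atp6v1a: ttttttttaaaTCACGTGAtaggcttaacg
Ctsa: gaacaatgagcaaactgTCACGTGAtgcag
Ctsd: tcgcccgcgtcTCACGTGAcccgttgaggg
Gla: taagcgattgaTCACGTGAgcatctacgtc
Mcoln1: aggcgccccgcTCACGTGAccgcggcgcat
They lie at chr16:44139373-44139402 (minus strand), chr2:164833743-164833772 (plus), chr7:142387908-142387937 (minus), chrX:134601215-134601244 (minus) and chr8:3500462-3500491 (plus). In GENCODE M21 the first is within Atp6v1a and outside its exons, those of Ctsa, Ctsd and Mcoln1 overlap an untranslated exon of a longer transcript of the same gene, and that of Gla overlaps an untranslated exon of Hnrnph2 on the other strand. The motif was searched on both strands, and it contains the shorter motif CACGTG. Of these 5 genes 4 rose and Mcoln1 did not pass. A match of letters is a description, not a site or a cause.

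Genes of osteoclasts and of multinucleated giant cells, which form by fusion of macrophages, were higher as well. Of 19 tested, 13 rose and 1 fell (median 1.71), and 8 (without MKF1 or MKM2) to 13 rose when 1 library was left out. Myh15, a myosin heavy chain, was at 37.8, 43.7 and 34 CPM against 1.23 (EVM1), 0.853 (EVM2), 0.101 (EVFY1), 0.329 (EVFY2) and 0 CPM (EVFN2), and rose by 5.43 (SE 0.41, adjusted p 0.000394). The list was chosen with earlier results of these data known, so the rise of Myh15 does not by itself mark these cells. Ctsk, the collagen-cleaving protease of osteoclasts, was at 222, 330 and 296 CPM against 17.9 to 70.9 CPM (log2 difference 3.02, SE 0.42, adjusted p 0.00285). Atp6v0d2, which macrophages need in order to fuse, was at 270, 250.3 and 250.2 CPM against 82.9 (EVM1), 55.4 (EVM2), 2.21 (EVFY1), 3.18 (EVFY2) and 2.20 CPM (EVFN2). It rose by 4.62 (SE 1.26, adjusted p 0.0317), but did not pass without any 1 KO implant, EVFY1, EVFY2 or EVFN2, nor in edgeR (adjusted p 0.0994).

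Not every osteoclast gene was higher. Acp5, which encodes the tartrate-resistant acid phosphatase, was at 130 to 150 CPM against 140 to 223 CPM (log2 difference -0.33, SE 0.17, adjusted p 0.187). Mmp9, a gelatinase, was at 5.75 to 7.04 CPM against 13.5 to 83.2 CPM and fell by 2.55 (SE 0.60, adjusted p 0.0182), but did not pass without any 1 KO implant. The osteoclast genes Calcr and Oscar did not reach the CPM minimum and were not tested.

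Genes of resident tissue macrophages split. Of 22 tested, 8 rose and 7 fell (median -0.24), and 2 (without MKM2) to 7 fell when 1 library was left out. Adgre1, which encodes a surface antigen of mature macrophages, rose and was at 390, 428 and 346 CPM against 119, 88.2, 44, 74.1 and 42 CPM in EVM1, EVM2, EVFY1, EVFY2 and EVFN2 (adjusted p 0.00255), without overlap. Csf1r, the receptor for the macrophage growth factor, rose by 1.11 (SE 0.16, adjusted p 0.00286), and Clec10a, a galactose-binding lectin, by 1.27 (SE 0.13, adjusted p 0.000947). Lyve1, a hyaluronan receptor of perivascular macrophages and lymphatic vessels, was at 2.32, 26.1 and 8.40 CPM against 39.7 to 58.3 CPM and fell by 2.45 (SE 0.60, adjusted p 0.0209). It did not pass without MKM2 or in edgeR (adjusted p 0.0602), and MKF2 lay above the other KO implants. The other genes that fell were Cd163, Timd4, Retnla, Cd209a, Cd209f and Cd209g.

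In the complement list, 11 of 29 tested members rose and 3 fell (median 0.62), and 9 (without MKM2) to 13 rose when 1 library was left out. C1qb, a chain of the initiator of the classical pathway that macrophages make, was at 611, 774 and 608 CPM against 201, 177, 118, 168 and 131 CPM (log2 difference 2.08, SE 0.19, adjusted p 0.000736). C1qc rose by 1.82 (SE 0.20, adjusted p 0.00138). The anaphylatoxin receptors C3ar1, C5ar1 and C5ar2 rose too, whereas C2 and C6 fell with Cfd.

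Among other immune genes, 9 of 13 mast cell and eosinophil genes rose and 0 fell (median 1.27; 7 without MKF2 to 9 when 1 library was left out). Tpsb2, a mast cell tryptase, was at 78.8, 103 and 87.7 CPM against 23.9 to 40.1 CPM (log2 difference 1.47, SE 0.19, adjusted p 0.0021), and Mcpt4, a mast cell chymase, rose by 1.57 (SE 0.21, adjusted p 0.00255). Of 13 monocyte and neutrophil genes 6 rose (3 without MKF1 or MKM2 to 8 without EVM1). The inflammatory cytokine list also holds receptors and other genes, and 10 of its 21 tested members rose and 1 fell (8 to 11 rose when 1 library was left out). Those that rose were Casp1, Il10ra, Tnf, Il1rl1, Il10, Tgfb1, Tnfrsf1b, Il1rn, Il1r2 and Osm. Of 16 genes of antigen presentation by MHC class II 6 rose and 1 fell, with 1 higher without MKF1 and 3 without MKF2. Tnf was low, at 2.06 to 2.44 CPM against 0.297 to 0.503 CPM (log2 difference 1.69, SE 0.19, adjusted p 0.00138), and Il1a, Il1b and Il6 did not reach the CPM minimum and were not tested. Of 35 chemokine genes 9 rose and 5 fell, with 6 (without MKF1) to 15 (without EVM1) higher and 0 (without MKM2) to 5 lower. Cxcl14, a chemokine made by stromal cells, was at 137, 130 and 144 CPM against 10, 9.96, 17.5, 13.9 and 19.8 CPM and rose by 3.27 (SE 0.23, adjusted p 0.000326). T and NK cell genes gave 2 of 26 higher (1 without MKF1 or MKM2, 8 without MKF2 and 4 in edgeR), B and plasma cell genes 3 of 23 and interferon genes 1 of 22 (0 without any 1 KO implant), against 15.7% of all tested genes.

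Sums of macrophage and monocyte genes varied within visceral fat. The monocyte and neutrophil list summed to 3375 CPM in EVM1 and 3554 CPM in EVM2, to 616 to 904 CPM in the visceral libraries with F codes and to 4666 to 5765 CPM in the KO implants. The giant cell list summed to 1133 and 802 CPM in EVM1 and EVM2, to 568 to 936 CPM in those with F codes and to 1935 to 2079 CPM in the KO implants. Their part in the results above was not tested. The comparison within the F codes, which holds neither EVM library, gave 18 of 21 lipid-associated macrophage genes and 12 of 19 giant cell genes higher. Of all genes tested in that comparison 16.6% were higher. For MKM2 against EVM1 and EVM2 the median log2 differences of these lists were 1.39 and 1.09, against 2.43 and 1.71 over all 8 libraries.

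**Figure D3:**
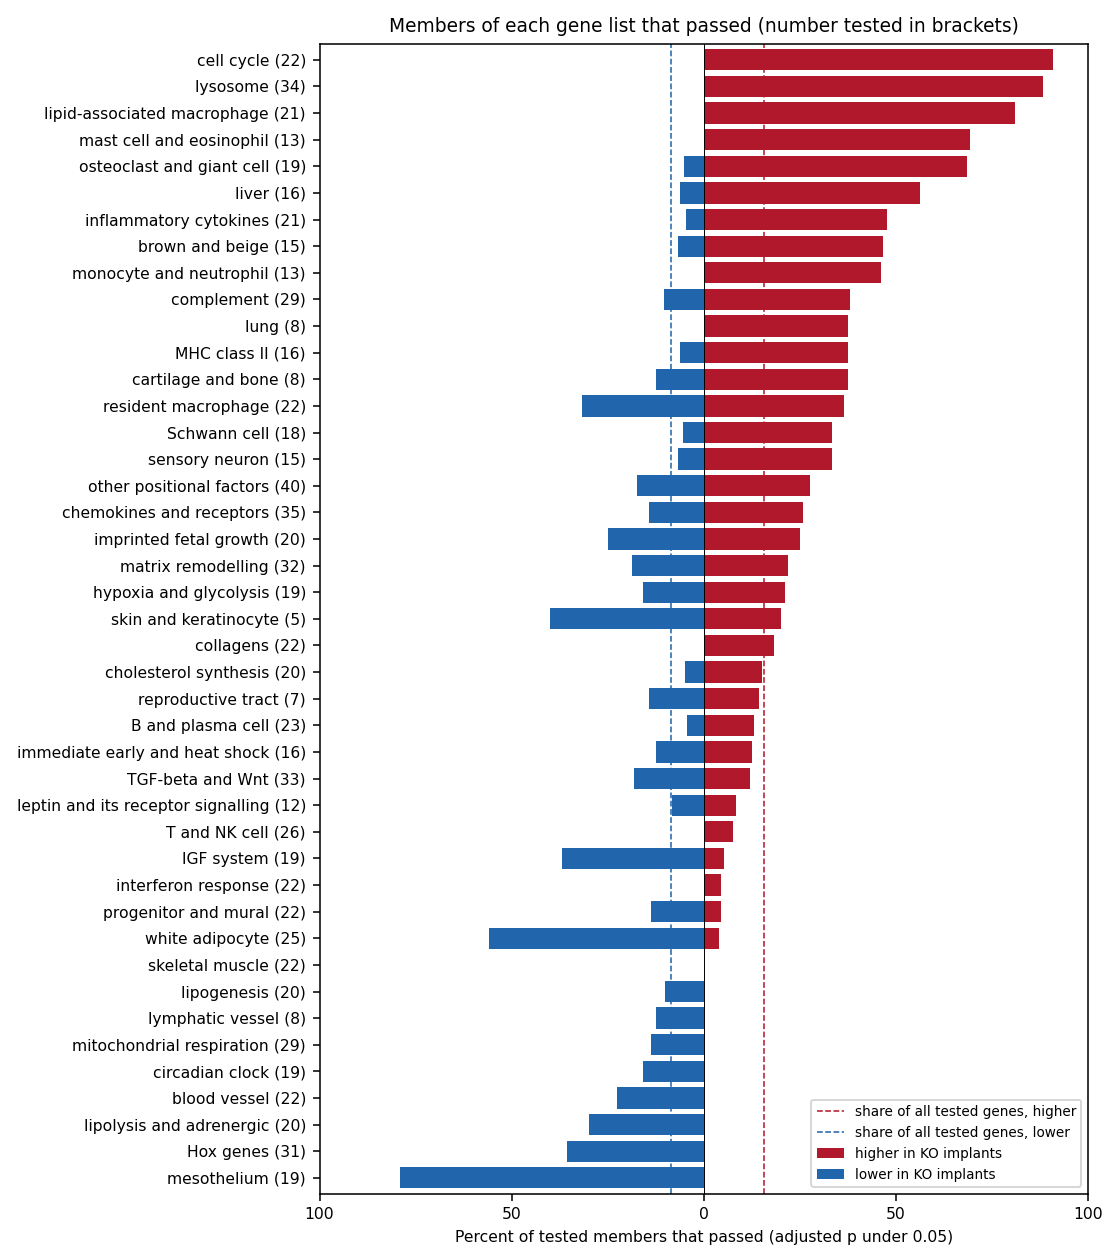
Share of the tested members of each gene list that passed and were higher (red, right) or lower (blue, left) in the KO implants, for the lists with at least 5 tested genes. Dashed lines are the shares of all tested genes, 15.7% higher and 8.45% lower. The bars for cell cycle, lysosome and lipid-associated macrophage genes reach farthest to the right, and that for mesothelium farthest to the left.

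Genes of dividing cells were higher too. Of 22 tested cell cycle genes 20 rose and 0 fell (median 1.46), and 12 (without MKF1) to 22 rose when 1 library was left out. Mki67, which marks dividing cells, was at 83, 78.3 and 79 CPM against 49.9 (EVM1), 23.1 (EVM2), 13.8 (EVFY1), 32.1 (EVFY2) and 7.49 CPM (EVFN2). It rose by 1.92 (SE 0.53, adjusted p 0.0328), but did not pass without any 1 KO implant or without EVFY1. Pcna, the sliding clamp of DNA replication, rose by 1.44 (SE 0.20, adjusted p 0.00286), and Rrm2, a subunit of ribonucleotide reductase, by 1.90 (SE 0.24, adjusted p 0.00199).

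Most mesothelial genes were lower in the KO implants. Of 19 tested, 15 fell and 0 rose, with a median of -3.34, and 12 (without MKF1) to 15 fell when 1 library was left out. Upk3b (chr5:136038496-136046487, mm10), a uroplakin of mesothelial cells, had 2 reads in the 3 KO implants together and was at 61.4 (EVM1), 109 (EVM2), 191 (EVFY1), 200.5 (EVFY2) and 148 CPM (EVFN2) in visceral fat. From the read counts visceral fat was 4460 times higher (95% counting interval 1240 to 36900), and Upk3b passed with an adjusted p of 3.65e-05. Lrrn4, a membrane protein of the same cells, was at 0.580, 0.215 and 0.509 CPM against 26.5 to 50.3 CPM and fell by 5.36 (SE 0.23, adjusted p 3.08e-05). Wt1, a transcription factor of mesothelium and visceral fat precursors, was at 0.435, 0.0859 and 2.90 CPM against 20.2 to 118 CPM and fell by 5.46 (SE 0.70, adjusted p 0.00214). MKM2 was the highest KO implant for Wt1 and for the list, whose sum was 244 CPM there, 106 and 93.9 CPM in MKF1 and MKF2, and 501 to 1019 CPM in visceral fat. Upk1b, Muc16, Pkhd1l1 and Lrp2 were among the 10 genes that fell the most. Lrp2, a large endocytic receptor, was at 139 CPM in EVM1 and at 7.67 to 18 CPM in the other visceral libraries.

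Transcription factors of body position differed in both directions. Of 31 tested Hox genes 11 fell and 0 rose (median -0.97; 5 without MKF1 to 14 without EVM2). Hoxc6 was at 9.42, 10.8 and 9.93 CPM against 28.8, 37.6, 47.4, 46.7 and 40.6 CPM and fell by 1.93 (SE 0.17, adjusted p 0.000514), and Hoxa5 fell by 1.91 (SE 0.16, adjusted p 0.00046). Of 40 other positional factors 11 rose and 7 fell in limma, whereas edgeR called 7 higher and 10 lower. In limma 8 to 13 rose when 1 library was left out. Tbx15 (chr3:99240381-99354259, mm10), a T-box factor of subcutaneous depots, was at 17, 28.3 and 18.1 CPM against 0.112, 0.31, 0.553, 0.439 and 0.653 CPM. It rose by 4.56 (SE 0.27, adjusted p 0.000168). En1, a homeobox factor of trunk skin and fat, rose by 2.48 (SE 0.27, adjusted p 0.00128). Gata6, a factor of visceral mesoderm, was at 9.32, 8.93 and 14 CPM against 38 to 86.5 CPM and fell by 2.35 (SE 0.29, adjusted p 0.00194), as did Gata5 and Tcf21. Esr1, the oestrogen receptor, was at 12, 14.9 and 16.9 CPM against 53.9 to 188 CPM and fell by 2.52 (SE 0.38, adjusted p 0.00358).

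Genes of brown and beige fat, which burns lipid for heat, had few reads on both sides, and some of them were higher in the KO implants. Of 15 tested, 7 rose and 1 fell (median 1.26; 5 and 1 in edgeR), and 5 (without MKF1, MKM2 or EVFN2) to 9 rose when 1 library was left out. The list's sum overlapped, at 147, 99.7 and 274 CPM in the KO implants against 68.7 to 123 CPM in visceral fat. Ucp1 (chr8:83290352-83298452, mm10), the uncoupling protein of brown fat, was at 18.2, 7.81 and 13.4 CPM and at 0 (EVM1), 0 (EVM2), 0.101 (EVFY1), 0 (EVFY2) and 0.178 CPM (EVFN2), and rose by 4.55 (SE 0.28, adjusted p 0.000196). Zic1, a zinc finger factor that marks brown fat precursors, had 312 reads in the KO implants and 3 in visceral fat, a ratio of 161 per read sequenced (95% counting interval 54.7 to 786). Ebf2, a factor of brown fat precursors, fell by 0.93 (SE 0.24, adjusted p 0.0247), but did not pass without EVFY1 or any 1 KO implant. Of 29 genes of mitochondrial respiration 4 fell and 0 rose, with 0 (without any 1 KO implant) to 9 (without EVM1) lower. Among all tested genes 8.45% were lower.

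Of 22 collagen genes 4 rose and 0 fell (median 0.57), and 0 (without MKF1 or MKF2) to 7 rose when 1 library was left out. The count that rose is near the 15.7% of all tested genes. Col3a1, a fibrillar collagen, was at 7795, 9697 and 7110 CPM against 4355, 3142, 2833, 6171 and 1792 CPM (log2 difference 1.27, SE 0.37, adjusted p 0.0388), and did not pass without any 1 KO implant, EVFY1, EVM2 or EVFN2. Genes of matrix remodelling split, with 7 of 32 tested members higher and 6 lower (4 and 6 in edgeR). When 1 library was left out, 1 to 9 rose and 0 to 6 fell. Mmp2, a matrix protease of stromal cells, was at 424, 632 and 522 CPM against 143 to 304 CPM (log2 difference 1.41, SE 0.25, adjusted p 0.006). The cartilage and bone list gave 3 of 8 tested members higher and 1 lower, the cartilage gene Cnmd. When 1 library was left out, 1 to 4 rose and 0 to 1 fell. Comp, a cartilage matrix protein, was at 96.2, 84.7 and 107 CPM against 5.92, 1.67, 1.66, 4.33 and 1.90 CPM and rose by 4.90 (SE 0.39, adjusted p 0.00046). The cartilage genes Acan and Col2a1 did not reach the CPM minimum and were not tested. Of 22 blood vessel genes 5 fell and 0 rose (2 without MKM2 to 8 without EVM2 fell), among them Flt1, a receptor for vascular endothelial growth factor, by 0.80 (SE 0.13, adjusted p 0.00386).

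Insulin and growth factor signalling and fetal growth genes also differed. Of 19 genes of the IGF system 7 fell and 1 rose (median -0.40), and 2 (without MKF1 or MKF2) to 7 fell when 1 library was left out. Irs1, the adaptor of the insulin receptor, was at 14.6, 15.6 and 13.5 CPM against 23.3, 52.9, 47, 47.8 and 35 CPM and fell by 1.41 (SE 0.25, adjusted p 0.00661). Insr, the insulin receptor, fell by 0.73 (SE 0.10, adjusted p 0.00288), and Igf2r, a lysosomal sorting receptor that also clears IGF2, rose by 0.84 (SE 0.14, adjusted p 0.00459). Of 20 imprinted genes 5 rose and 5 fell, and 2 (without any 1 KO implant) to 5 rose when 1 library was left out. H19, a maternally expressed noncoding RNA of fetal growth, was at 37.5, 79.8 and 60.3 CPM against 0.725, 0.581, 4.58, 5.43 and 3.45 CPM (log2 difference 4.38, SE 0.63, adjusted p 0.00313), while Plagl1, a zinc finger regulator of that gene network, fell by 2.02 (SE 0.23, adjusted p 0.00152).

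Of the 10 genes named for the largest rise, those other than Itgad are known from liver, and their levels varied widely between the KO implants. Of 16 tested liver genes 9 rose and 1 fell (median 4.93), and 2 (without MKF1) to 14 (without MKF2) rose when 1 library was left out. Apob, the protein of very low density lipoprotein, was at 147, 3.91 and 750.4 CPM in MKF1, MKF2 and MKM2 and at 0.0388 to 0.101 CPM in visceral fat (log2 difference 7.13, SE 1.37, adjusted p 0.00839). Alb, which encodes albumin, was at 943, 32.9 and 5622 CPM against 6.97 to 61.6 CPM, and with MKF2 inside the visceral range it did not pass in limma (adjusted p 0.058) and passed in edgeR (adjusted p 0.0173). MKM2 was the highest and MKF2 the lowest of the implants for both. Gc, Apoa1, Hpx, Fga, Apoa4, Pzp, Fgb and Bhmt, for plasma proteins, apolipoproteins and a methionine cycle enzyme of hepatocytes, had the same order. Apoa1, Fga, Fgb, Gc and Pzp did not pass without MKF1, and Bhmt did not without EVFY1 or EVFN2. Bhmt was at 58.1, 0.773 and 460 CPM in MKF1, MKF2 and MKM2. Without MKF1 or MKM2, and within the F codes, it missed the CPM minimum and was not tested. Apoa4 had no reads in visceral fat and was at 44.4, 3.61 and 277 CPM in MKF1, MKF2 and MKM2, so most of its reads came from MKM2. Cyp2e1, a liver enzyme that fat also expresses, fell by 4.25 (SE 0.79, adjusted p 0.00751) and made up most of the list's sum in visceral fat.

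Lung surfactant genes were present at low levels. Of the 8 lung genes tested 3 rose and 0 fell. Sftpc was at 6.28, 5.32 and 11.8 CPM in the KO implants and had no reads in visceral fat (at least 251-fold higher). Sftpb, with 2 visceral reads, and Sftpa1, with 0, rose with it. These genes reached the CPM minimum only through the KO implants, so they could be called only higher. The whole lung list of 12 genes summed to 19.3 to 110 CPM in the KO implants and to 4.77 to 100.5 CPM in visceral fat, with EVM1 at the top of the latter. The 25 skeletal muscle genes summed to 3875 CPM in MKF2 and to 108 and 110 CPM in MKF1 and MKM2, against 77.1 to 1137 CPM, and 0 of 22 tested passed in limma (0 at an unadjusted p under 0.05) or in edgeR. The part of organ RNA in other results was not tested.

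**Figure D4:**
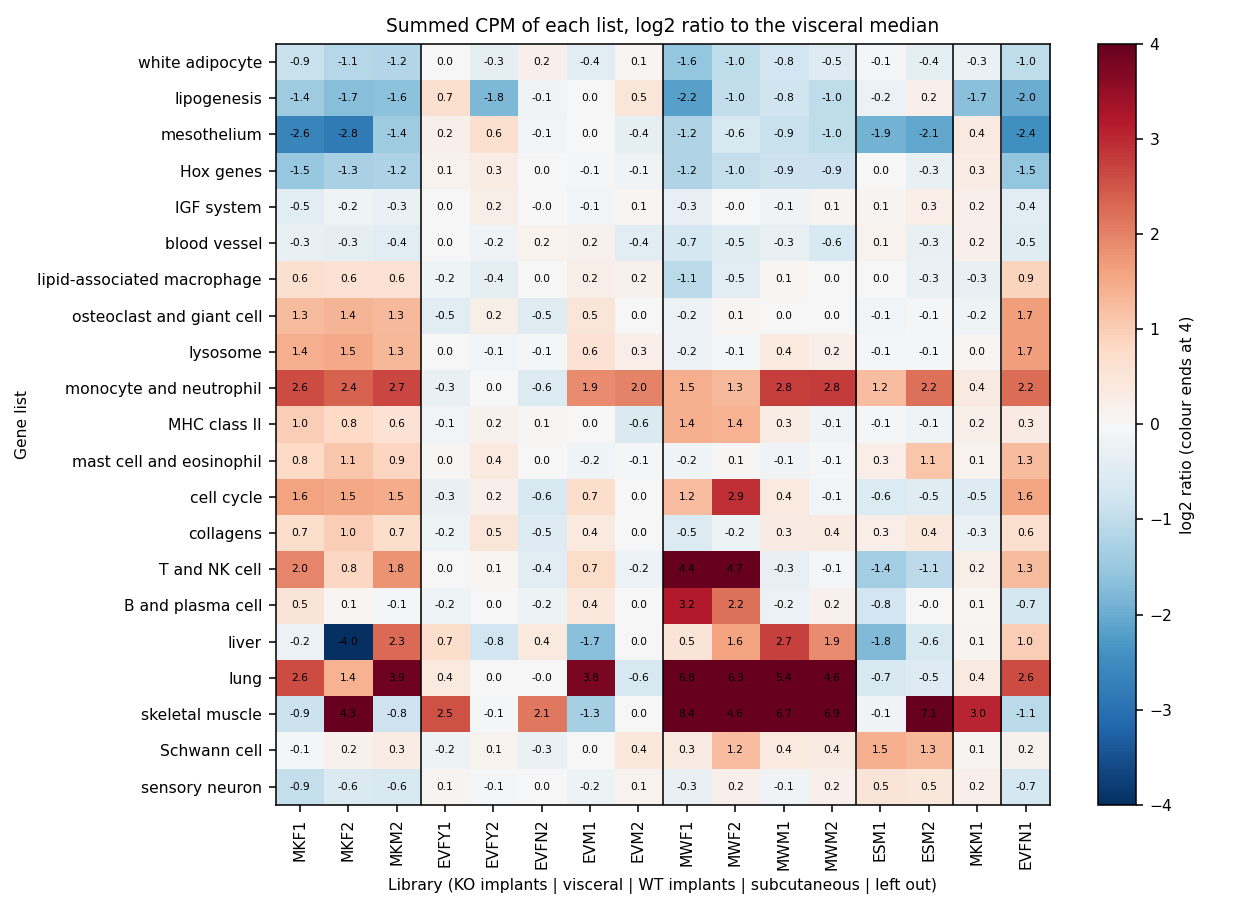
Summed CPM of each gene list in every library, as the log2 ratio to the median of the 5 visceral libraries, with the value in each cell and colours ending at 4. Columns are the KO implants, visceral fat, WT implants, subcutaneous fat and the left-out libraries labelled MKM1 and EVFN1. Among the KO implants, liver sums range from 131 CPM in MKF2 to 10249 CPM in MKM2 and lysosome sums from 23963 to 27056 CPM.

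Levels in WT implants and subcutaneous fat (codes MWF, MWM and ESM) are given beside these differences. The 4 tissues were fitted in 1 model, in which KO implants differed from WT implants in 1090 higher genes (6.1%) and 652 lower ones (3.65%) of 17871. The comparisons share the KO libraries, so each is given by its own values. Upk3b was at 0.0608 to 0.266 CPM in the 4 WT implants and at 0 and 0.0569 CPM in ESM1 and ESM2, and Tbx15 at 20.3 to 75.2 CPM and at 30.2 and 62.1 CPM. Neither gene passed between KO and WT implants (adjusted p 0.613 and 0.0961). For Tbx15 every KO implant lay below both subcutaneous libraries (log2 difference -1.06, adjusted p 0.182) and above every visceral one. Cfd was at 1223, 1416, 1391 and 2210 CPM in MWF1, MWF2, MWM1 and MWM2 and at 8046 and 13269 CPM in subcutaneous fat, so each WT implant lay above the KO implants and below both fats. It fell in KO against WT implants by 3.93 (adjusted p 4.00e-05). Myh15 was at 0.744 to 1.74 CPM in WT implants and at 0.0567 and 0.0569 CPM in subcutaneous fat, below the KO implants in every library (log2 difference 4.55 against WT implants, adjusted p 8.09e-05). Trem2 was at 8.02 to 56.3 CPM in WT implants (log2 difference 3.98, adjusted p 0.00738). Of the lysosome list 26 of 34 members were higher than in WT implants and of the lipid-associated macrophage list 17 of 21, while of the cell cycle list 0 of 22 and of the mesothelium list 0 of 19 were (2 of the latter were lower).

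The comparison of libraries with F codes alone, MKF1 and MKF2 against EVFY1, EVFY2 and EVFN2, called 2651 of 15950 genes higher (16.6%) and 1791 lower (11.2%). It called 1121 genes without MKF1, 1245 without MKF2, 1936 without EVFY1, 2725 without EVFN2, 6910 without EVFY2, and 0 with the library labelled EVFN1 added (1466 at an unadjusted p under 0.05). For the M codes, MKM2 against EVM1 and EVM2 gave 224 genes higher (1.34%) and 97 lower (0.58%), with MKM2 assumed to vary like the other libraries. The difference between the letters was tested directly, and limma called 0 of 16711 genes (0.0%), with 1857 at an unadjusted p under 0.05, and edgeR called 2. The smallest adjusted p was 0.0791, for Tm4sf19 and Atp6v0d2, for which the M-code difference minus the F-code difference was -4.14 (SE 0.34) and -4.57 (SE 0.36) on the log2 scale. Atp6v0d2 rose by 6.44 within the F codes and by 1.88 within the M codes. Cfd differed by -6.71 and -6.36, and Upk3b by -8.36 and -7.36.

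**Figure D5:**
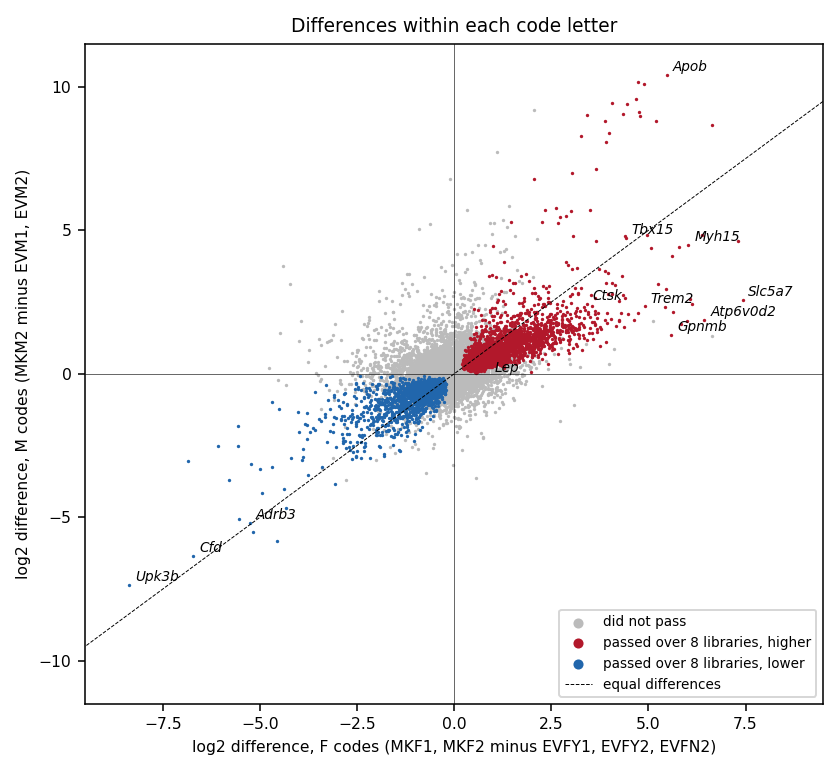
Each point is a gene, with the log2 difference between MKF1 and MKF2 and the 3 visceral libraries with F codes on the x axis and that between MKM2 and EVM1 and EVM2 on the y axis. Colours give the call over all 8 libraries, and the dashed line marks equal differences. Cfd (-6.71 and -6.36) lies near the line, Gpnmb (5.60 and 1.37) and Atp6v0d2 (6.44 and 1.88) below it, and Apob (5.48 and 10.4) above it.

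Tph2, Slc5a7, Gpr50, Gdf3 and Adam8 belong to none of the lists and were picked after their values were seen. Tph2, the serotonin-synthesizing enzyme of neurons, was at 92.3, 84.2 and 69.9 CPM against 3.63 (EVM1), 0.969 (EVM2), 0.503 (EVFY1), 0.877 (EVFY2) and 0.356 CPM (EVFN2) and rose by 5.79 (SE 0.47, adjusted p 0.000477). Slc5a7, the choline transporter, was at 111, 103 and 117 CPM against 73.2 CPM in EVM1, 4.84 CPM in EVM2 and 0 to 0.219 CPM in the F codes. It passed with an adjusted p of 0.036, but did not without any 1 KO implant, EVFY1, EVFY2 or EVFN2, nor in edgeR (adjusted p 0.247). Gpr50, an orphan receptor related to melatonin receptors, rose by 5.27 (SE 0.51, adjusted p 0.000947). Gdf3, a ligand of the TGF-beta family, was at 47.1, 55.6 and 30.5 CPM against 0.654 to 4.18 CPM (log2 difference 4.46, SE 0.46, adjusted p 0.00113). Adam8, a membrane protease of myeloid cells, was at 444, 536 and 441 CPM against 86.7, 58.8, 7.14, 5.87 and 7.54 CPM (log2 difference 4.69, SE 0.93, adjusted p 0.00942). For these 5 genes EVM1 was the highest visceral library.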

How the data were processed

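Ribosomal RNA was removed with RNase H and the rest was copied from random hexamers, per the labels' protocols, which also name the molecule as polyA RNA. Per the submitters' processing notes, cutadapt 2.7, FastQC 0.11.4, STAR 2.5.4 and featureCounts (Subread 1.6.3) were used with mm10; how strand was set and which annotation was used is not given in the sources used here, so overlapping and antisense genes cannot be told apart. The authors deposited CPM values for 54658 genes in 16 columns, each summing to 1000000. Of the nonzero values, 100% were whole multiples of 1 read (tolerance 0.001), which gave back read counts. The labelled sample ESF is not analysed here, and 0 columns belonged to no sample.

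The tested genes had 1 CPM or more in 2 or more of the compared libraries. Genes near 0 on 1 side, such as Apob, Zic1, Sftpc and Upk3b, met this only through the other side, so their direction was fixed by the filter. They were fitted with limma 3.58.1 (R 4.3.3; mean trend, robust) on log2(CPM + 0.5), a scale that understates changes of low genes. Benjamini-Hochberg adjustment ran over every tested gene, with 0.05 as the threshold, and edgeR 4.0.16 (quasi-likelihood) on recovered reads, which called 3958 genes, was an alternative. On simulated counts for 16711 genes with 200 changed, limma recovered 71% at a log2 fold of 1 and 100% at 2, and called 5 unchanged genes. The simulation gave every gene the same spread beyond counting error and set no library apart. These rates therefore need not hold for the real libraries. Counting intervals (95%, exact) and the floor of 3 reads for a count of 0 cover counting error only.

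The members and the 45 gene lists were chosen with earlier results of these data known. Named were Lep, Lepr and Cfd, up to 3 members of each list with the smallest adjusted p (2 with the smallest p where none passed), members of short counts, and the 10 rising and 10 falling genes with the largest fold, a mean of 10 CPM or more on 1 side, no overlap and no predicted-gene symbol; for the M and F codes, the 5 with the smallest adjusted p. Of 168 genes named, those beyond this rule were chosen after their values were seen: Adam8, Tph2, Slc5a7, Gpr50, Gdf3, Gpnmb, Trem2, Itgax, Acp5, Fabp4, Myh11, Igf2, Mki67, Alb, Adipoq, Pparg, Gata6, Atp6v1a, Ctsd, Gla and Mcoln1 among them. Gene positions are mm10 in GENCODE M21, and promoters are RefSeq's (GRCm38.p6). A gene that the rule would name is not reported here.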

Additional observations from a re-analysis of the deposited data

Results flagged for a closer look

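For 14 of the 168 named genes 1 of the 5 visceral libraries lay far from the other 4, and for 7 of them it was EVM1. Chance gives this in about 1 of 20 genes if values spread normally. Named genes were chosen largely by their values, so their count was not tested against that rate. EVM1 was the highest for Hpx at 1.73 CPM (others 0.151 to 0.329) and for Lrp2 at 139.0 CPM (others 7.67 to 18.0). It was also the highest for Olr1 at 1.23 CPM (others 0.452 to 0.62), for Ctsa at 318.0 CPM (others 223.0 to 245.0) and for Gpr50 at 1.84 CPM (others 0 to 0.238). EVM2 was the highest for Fdft1 at 70.1 CPM (others 49.8 to 54.1). It was the lowest for the neuronal gene Uchl1 at 2.17 CPM (others 4.46 to 5.43), the endothelial receptor gene Tek at 61.1 CPM (others 85.7 to 97.7), the keratinocyte gene Sbsn at 19.1 CPM (others 37.8 to 47.6) and the cartilage gene Cnmd at 0.31 CPM (others 0.951 to 1.17). EVFY2 was the lowest for the clock gene Per2 at 46.8 CPM (others 53.6 to 56.5). For 3 genes all visceral reads were in 1 library, so that its distance from the others at 0 is fixed by counting: 1 read each of Fga and of Bhmt in EVM1 (0.0558 CPM) and 3 reads of Zic1 in EVFY1 (0.151 CPM).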

How the results depend on the processing

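The 4036 genes called between KO implants and visceral fat became 7989 with array quality weights, 321 in the M codes alone and 0 with the libraries labelled MKM1 and EVFN1, in limma and in edgeR (0). Leaving out 1 library gave 1911 to 4625. Pseudocounts of 0.1 and 2, no filter on low values, TMM and median-of-ratios scaling, edgeR, the letter as a covariate and fits with the other tissues gave 3331 to 4402, and 65.0% of calls were higher, against 55.6% with median-of-ratios scaling. For the F codes, the 4442 calls became 0 with the library labelled EVFN1 and 1121 to 6910 without 1 library. The difference between the letters gave 0 calls, 112 with no filter, 2 with median-of-ratios scaling, 2 in edgeR and 0 to 18 without 1 library. Same-numbered deviations correlated at 0.13 for MKF and EVM and at -0.05 for MKF and EVFY. Each code gave 1 difference, and MKM2 and EVFN2 could not enter, so whether replicate numbers pair the samples was not decided. With a replicate block 3371 genes passed over all libraries and 2776 in the F codes. Some directions turned. Lep was -0.07, Lepr 1.90, Nrn1 2.52 and Myh11 0.83 (log2) in the M codes. With both left-out libraries Lepr was 0.02, Tnnt1 0.13 (0.69 in edgeR), Nrn1 0.20 and Cyp11a1 -0.52 in edgeR. Without 1 library Lepr ranged from -0.78 to 0.17 (without EVFY2) and Nrn1 from -0.77 to 0.18, with 0.04, 0.06 and 0.13 without EVFY2, MKF2 and EVFN2. The causes were not tested. Of the 156 named genes that passed, 145 did in edgeR and 0 with both left-out libraries. A read was worth 0.0388 to 0.0594 CPM, which limits values of genes near 0.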
